A study of Mus musculus with 63 samples.

Results

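The genes followed here are 7 cholesterol synthesis genes, taken by name from 55291 gene symbols counted: Hmgcs1, Idi1, Fdft1, Sqle, Cyp51, Dhcr7 and Insig1. They were chosen as targets of the transcription factor SREBP2, by a rule that uses gene names alone. All 7 were counted in each of 63 libraries and passed the filter on low counts in every comparison.

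Cells make cholesterol from acetyl-CoA by the mevalonate pathway, which leads through isoprenoids and squalene to lanosterol and then to cholesterol. When sterols in the membrane of the endoplasmic reticulum are low, SCAP escorts SREBP2 to the Golgi, where it is cleaved, and the released part enters the nucleus and drives the genes of the pathway. When sterols are high, INSIG proteins hold SCAP and SREBP2 back, so the pathway is under feedback control. Little plasma cholesterol enters the brain, where neurons and glia depend on local synthesis and on transfer of lipoproteins from astrocytes.

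The RNA came from organotypic slices of entorhinal cortex and hippocampus, cultured from mouse pups of either sex at postnatal day 3 to 5 and kept for at least 18 days in vitro. Synpo+/+ cultures were C57BL/6J. Synpo-/- cultures were B6.129-Synpo tm1Mndl/Dllr, a line without synaptopodin that was backcrossed at least 10 times, which carries the deletion in all of its cells. In the ECL groups the entorhinal cortex was severed with a scalpel 3 days before sampling, which removes the perforant path input to the hippocampus, and control cultures kept it. For the regional set, the dentate gyrus (DG) or the CA3 area of 1 culture was dissected for each of 39 libraries. The Synpo+/+ groups held 2 CA3 control, 3 CA3 ECL, 4 DG control and 7 DG ECL libraries. The Synpo-/- groups held 6 CA3 control, 6 CA3 ECL, 7 DG control and 4 DG ECL libraries. For the coIP set of 24 libraries, 6 whole cultures were pooled per replicate, and RNA was taken from the precleared lysate (input) and from beads with an antibody against synaptopodin (coIP), with cycloheximide in the buffer. This set held 5 input and 5 coIP libraries each of Synpo+/+ control and ECL cultures, and 2 of each fraction of Synpo-/- cultures, whose labels give no lesion.

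Total counts ran from 14055930 to 46043990 in the regional set and from 11601154 to 53682143 in the coIP set. Prox1, the defining transcription factor of dentate granule cells, lay at 120.1 to 217 CPM (read counts scaled to library size by TMM) in all DG libraries but Synpo+/+ DG ECL replicate 5, which had 15.5 CPM beside 12.7 to 44.0 CPM in the CA3 libraries. In that library the summed level of 4 dentate granule cell markers was 28.2 CPM (296 to 507 CPM in the other 6 of its group), that of 4 CA3 pyramidal cell markers 106.6 CPM (30.7 to 43.6 CPM) and that of 5 neuronal markers 8203 CPM (3181 to 4232 CPM). It goes against its DG label, so the tests and correlations that use it are given with and without it, except permutation p-values, which are given with it. Libraries labelled Synpo-/- did not have less Synpo RNA (30.4 to 69.3 CPM, beside 19.1 to 38.4 CPM in the regional libraries labelled Synpo+/+), and counts per gene do not show which part of the locus was read. The genotypes below are therefore those of the labels.

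Positions are those of GRCm38 with the GENCODE M25 annotation. Hmgcs1 (ENSMUSG00000093930.2), the cytosolic HMG-CoA synthase of the mevalonate pathway, lies at chr13:119690379-119708260 on the plus strand. Idi1 (ENSMUSG00000058258.14), the isopentenyl diphosphate isomerase, lies at chr13:8885501-8892451 on the plus strand. Fdft1 (ENSMUSG00000021273.11), squalene synthase and the first enzyme committed to sterols, lies at chr14:63145150-63179578 on the minus strand. Sqle (ENSMUSG00000022351.14), squalene epoxidase, lies at chr15:59315077-59331192 on the plus strand. Cyp51 (ENSMUSG00000001467.5), the lanosterol demethylase, lies at chr5:4081145-4104746 on the minus strand. Dhcr7 (ENSMUSG00000058454.15), which reduces 7-dehydrocholesterol to cholesterol in the last step, lies at chr7:143823145-143848410 on the plus strand. Insig1 (ENSMUSG00000045294.11), which holds SCAP in the endoplasmic reticulum, lies at chr5:28071363-28078662 on the plus strand. Reads were counted over exons without regard to strand, and genes on the opposite strand share exon bases with 4 of the 7. Ctsb covers 18.8% of the exon length of Fdft1, Gm48342 12.12% of Hmgcs1, Gm48574 9.215% of Idi1 and Akap9 3.76% of Cyp51. Reads in those stretches cannot be assigned to either gene, so the values of these 4 genes are uncertain to that extent.

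SREBP2 binds sterol regulatory elements near the start of its targets, usually beside a CCAAT box bound by NF-Y. The promoters of 4 of the genes that moved are shown to place these letters. RefSeq (GRCm38.p6) gave 7 promoter entries of 300 bases (250 before the start to 50 after it) for 5 of the 7 genes (not for Sqle and Fdft1), 3 of them for Dhcr7. The sterol regulatory element of textbook form, TCACNCCAC on either strand, was in 1 of the 7 entries, that of Hmgcs1, 137 bases before the start, and in 1.242% of all 32851 mouse promoters in the table. The CCAAT box on either strand (ATTGG when read on the other strand) was in 5 of the 7 entries, at least 1 for each of the 5 genes, and in 37.4083% of all promoters. No match of one motif overlapped a match of the other. Sterol regulatory elements of any other form were not searched for, so entries without this form may still hold one. In the sequences below, capitals mark both motifs. They run from chr13:119690101-119690400 on the plus strand for Hmgcs1, chr13:8885356-8885655 on the plus strand for Idi1, chr5:4104648-4104947 on the minus strand for Cyp51 and chr5:28071162-28071461 on the plus strand for Insig1.
Hmgcs1: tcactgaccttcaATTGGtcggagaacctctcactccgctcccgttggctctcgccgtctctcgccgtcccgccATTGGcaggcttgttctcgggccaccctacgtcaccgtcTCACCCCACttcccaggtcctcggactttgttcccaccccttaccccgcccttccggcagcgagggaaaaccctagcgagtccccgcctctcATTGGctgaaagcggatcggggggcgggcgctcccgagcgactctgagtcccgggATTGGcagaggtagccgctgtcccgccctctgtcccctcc
Idi1: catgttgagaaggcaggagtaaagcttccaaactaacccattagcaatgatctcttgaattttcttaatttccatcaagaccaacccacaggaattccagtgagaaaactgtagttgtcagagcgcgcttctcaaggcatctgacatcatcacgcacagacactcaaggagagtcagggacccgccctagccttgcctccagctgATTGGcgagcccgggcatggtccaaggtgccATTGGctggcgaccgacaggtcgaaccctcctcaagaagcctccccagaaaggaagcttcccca
Cyp51: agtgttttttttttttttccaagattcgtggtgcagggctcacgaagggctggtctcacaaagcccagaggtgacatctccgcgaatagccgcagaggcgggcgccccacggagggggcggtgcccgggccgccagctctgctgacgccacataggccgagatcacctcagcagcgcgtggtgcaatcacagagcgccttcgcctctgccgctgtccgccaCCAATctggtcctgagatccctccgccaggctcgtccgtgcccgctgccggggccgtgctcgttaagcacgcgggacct
Insig1: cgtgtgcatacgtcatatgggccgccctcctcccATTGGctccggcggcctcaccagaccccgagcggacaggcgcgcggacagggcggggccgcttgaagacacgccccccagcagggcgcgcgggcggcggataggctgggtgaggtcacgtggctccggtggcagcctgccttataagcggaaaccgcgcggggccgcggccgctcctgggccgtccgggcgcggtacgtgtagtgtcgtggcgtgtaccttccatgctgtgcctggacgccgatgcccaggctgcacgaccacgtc

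Levels per length put Hmgcs1 first in both sets. Averaged over the 39 regional libraries, Hmgcs1 had 37.1 CPM per kb of exon, followed by Fdft1 (11.8), Cyp51 (9.41), Sqle (8.74), Insig1 (8.67), Idi1 (5.22) and Dhcr7 (1.42). Over the 24 coIP and input libraries the order was Hmgcs1 (68.5 CPM per kb), Fdft1 (36.2), Sqle (25.4), Cyp51 (20.6), Dhcr7 (5.08), Idi1 (3.78) and Insig1 (3.22). In the regional set, Fdft1, Cyp51, Sqle and Insig1 lay closer to their neighbours in this order than the larger SD of each pair (SD of at most 3.17 CPM per kb, n = 39), while the range of Hmgcs1 (21.1 to 56.3) lay above all others and that of Dhcr7 (0.793 to 2.85) overlapped only that of Idi1. The sets differ in tissue and library preparation and were normalised apart, so these levels are set side by side and were not compared. Dhcr7, the lowest in the regional set, still had 97 to 624 counts per regional library, and Hmgcs1 1745 to 8681.

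**Figure D1:**
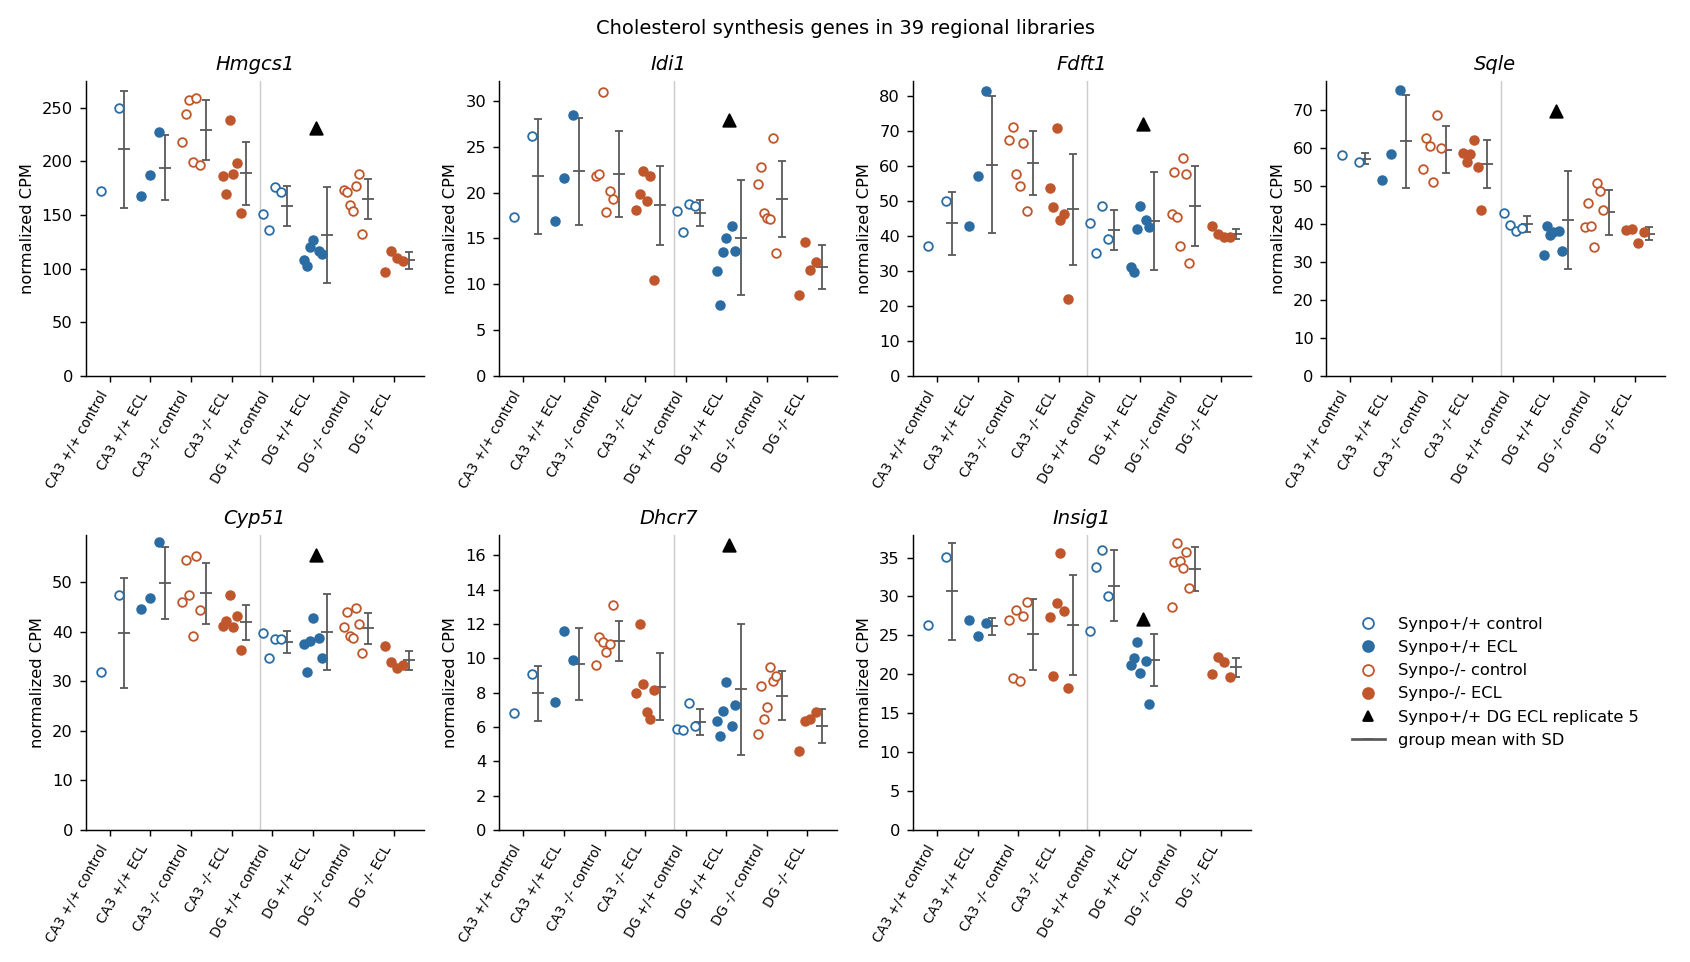
Normalised CPM of each of the 7 genes in the 39 regional libraries (y axis, from 0), by region, genotype and lesion, with group means and SD. In DG, the 4 Synpo-/- ECL libraries lie below all 7 controls for Hmgcs1 and Insig1, and Synpo+/+ DG ECL replicate 5 is the highest library of its group for all 7 genes.

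The lesion comparison asks what the loss of entorhinal input does to these transcripts. In Synpo-/- DG, 4 of the 7 genes fell after ECL (edgeR quasi-likelihood test, Benjamini-Hochberg adjusted over all genes), while 3.36% of the 23310 genes tested fell, 5.17% rose and 8.53% moved in either direction. The 4 stand at the start of the pathway (Hmgcs1, Idi1), in its sterol part (Cyp51) and in its feedback control (Insig1). None of the 7 rose, and their median log2 fold change was -0.40, beside 0.01 for all genes tested. In tissue lysed whole, fewer cells of a type and less RNA per cell cannot be told apart, here and in every comparison below.

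In Synpo-/- DG, Hmgcs1 ran from 132 to 188 CPM in 7 controls, with a median of 171 CPM, and was at 97.1, 107, 109.9 and 117 CPM in the 4 ECL libraries. Every ECL library lay below every control. The log2 fold change was -0.66 ± 0.10 (SE, adjusted p = 0.000774). The share of all genes whose groups separated in full was not computed, here or in any comparison below. Insig1 ran from 28.7 to 36.9 CPM in controls, with a median of 34.4 CPM, and was at 19.7, 20.1, 21.6 and 22.3 CPM after ECL. These groups did not overlap either, and the log2 fold change was -0.72 ± 0.10 (adjusted p = 0.000274). Idi1 ran from 13.5 to 25.9 CPM in controls, with a median of 17.7 CPM, and was at 8.80, 11.6, 12.5 and 14.6 CPM after ECL. The highest ECL library lay within the control range, and the log2 fold change was -0.75 ± 0.17 (adjusted p = 0.0126). Without ECL replicate 1 the adjusted p for Idi1 was 0.0574. Cyp51 ran from 35.8 to 44.9 CPM in controls, with a median of 41.0 CPM, and was at 32.7, 33.2, 33.9 and 37.1 CPM after ECL. Its call was at the limit, with a log2 fold change of -0.30 ± 0.09 (adjusted p = 0.0472). It was lost in 10 of the 11 fits that left out 1 library, all but that without control replicate 7, with adjusted p from 0.0523 to 0.191, and also without a filter on low counts or with all 4 DG groups in the fit.

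The other 3 genes had log2 fold changes below 0 in Synpo-/- DG that did not pass the test. Sqle was at 43.1 ± 5.91 CPM (SD, n = 7) in controls and 37.5 ± 1.70 CPM (n = 4) after ECL, Fdft1 at 48.5 ± 11.4 and 40.6 ± 1.52 CPM, and Dhcr7 at 7.83 ± 1.45 and 6.07 ± 0.998 CPM. Their log2 fold changes were -0.24 (adjusted p = 0.171), -0.30 (adjusted p = 0.261) and -0.40 (adjusted p = 0.133). Ctsb, the lysosomal protease gene that shares exon bases with Fdft1, averaged 1114 CPM over the regional libraries, beside 48.7 CPM for Fdft1, and rose in this comparison (0.78, adjusted p = 0.00346) and in Synpo+/+ DG (0.988, 0.000597).

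In Synpo+/+ DG the result turned on replicate 5 of the ECL group. With all 7 ECL libraries, only Insig1 of the 7 genes fell, while 4.31% of 23720 genes fell, 7.86% rose and 12.2% moved in either direction. Insig1 was at 25.6, 30.1, 33.8 and 35.9 CPM in 4 controls and ran from 16.2 to 27.0 CPM after ECL, with a median of 21.7 CPM. Replicate 5, at 27.0 CPM, was the only ECL library within the control range, and the log2 fold change was -0.55 ± 0.13 (adjusted p = 0.0175). The call was lost without control replicate 2 (adjusted p = 0.0597) or control replicate 3 (adjusted p = 0.0695). Hmgcs1 was at 136, 151, 171 and 176 CPM in controls and at 102 to 231 CPM after ECL, with a median of 117 CPM. The value of 231 CPM was that of replicate 5, and with it the log2 fold change of -0.30 ± 0.18 did not pass the test (adjusted p = 0.246).

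Without replicate 5, 3 of the 7 genes fell in Synpo+/+ DG, while 5.3% of 23605 genes fell, 8.46% rose and 13.8% moved in either direction. Hmgcs1 then ran from 102 to 127 CPM in 6 ECL libraries, below all 4 controls, with a log2 fold change of -0.51 ± 0.10 (adjusted p = 0.0027). Insig1 ran from 16.2 to 24.1 CPM, also below all controls, with a log2 fold change of -0.63 ± 0.12 (adjusted p = 0.0037). Idi1 was at 15.7, 18.0, 18.5 and 18.8 CPM in controls and ran from 7.71 to 16.3 CPM after ECL, with a log2 fold change of -0.49 ± 0.16 (adjusted p = 0.049). Sqle, Fdft1, Cyp51 and Dhcr7 had log2 fold changes from -0.18 to 0.07 in this fit and did not pass the test. The leave-outs of single libraries were made from the full groups, so no other library was left out together with replicate 5.

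In CA3, none of the 7 genes passed the test after ECL in either genotype. In Synpo+/+ CA3, where 1.78% of 22340 genes were called and 1.5% rose, the log2 fold changes ran from -0.33 for Insig1 (adjusted p = 0.204) to 0.36 for Fdft1 (adjusted p = 0.358). In Synpo-/- CA3, with 6 libraries in each group, only 0.077% of 20772 genes were called. Hmgcs1 ran from 197 to 259 CPM in controls, with a median of 231 CPM, and from 152 to 239 CPM after ECL, with a median of 187 CPM. The ranges overlapped, and the log2 fold change was -0.27 ± 0.10 (edgeR, adjusted p = 0.558). Dhcr7 had a log2 fold change of -0.39 (adjusted p = 0.552) and Insig1 one of 0.07. Replicate 6 of the Synpo-/- CA3 ECL group stood apart. Its mean log2 CPM over the 7 genes was 4.71, beside 5.20 to 5.42 in the others. Its summed neuronal markers were at 4029 CPM, beside 6583 to 7545 CPM. None of the 7 passed without it either. At an unadjusted p under 0.05, edgeR gave 1 of the 7 in Synpo+/+ CA3, beside 23.9% of all genes, and 2 in Synpo-/- CA3, beside 7.27%. At an adjusted p under 0.05, DESeq2 called 0 in both.

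**Figure D2:**
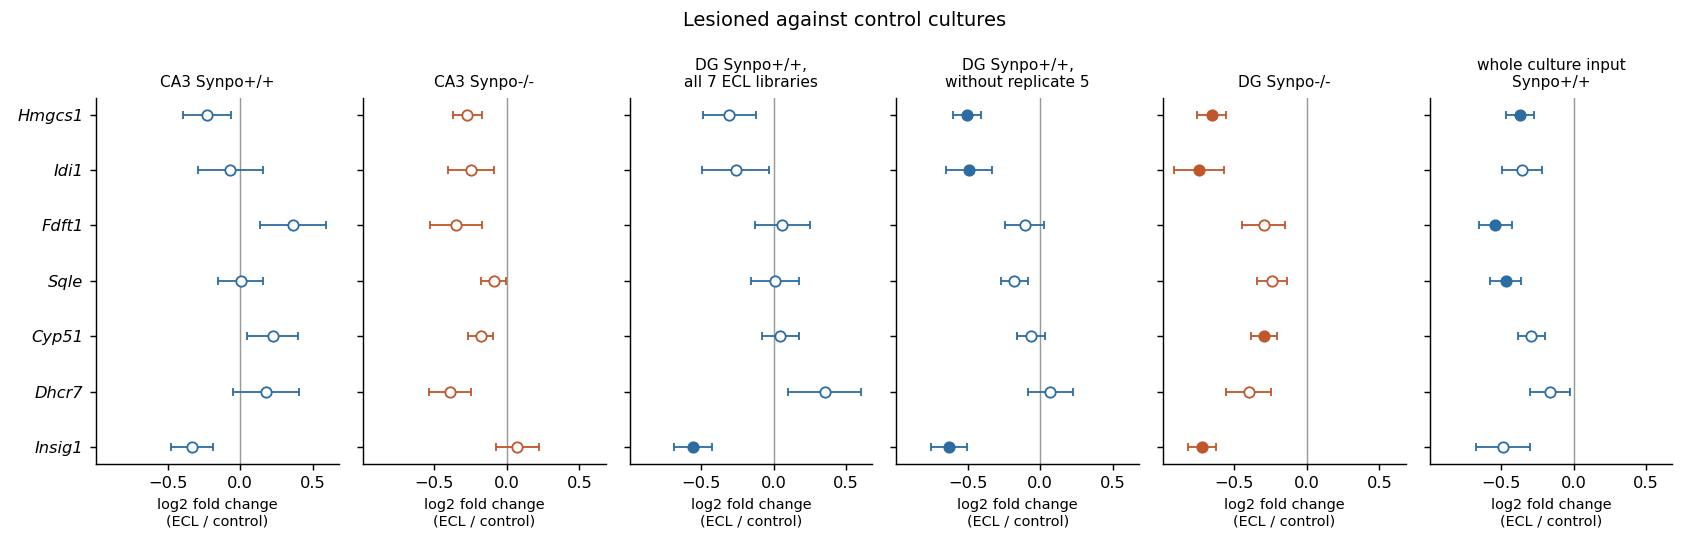
Fitted log2 fold change of ECL over control (x axis) with SE for each of the 7 genes, in the 4 regional comparisons and in the input of pooled Synpo+/+ cultures, with Synpo+/+ DG also shown without replicate 5. In Synpo-/- DG all 7 points lie below 0, from -0.75 for Idi1 to -0.24 for Sqle, while in Synpo+/+ CA3 they lie on both sides of 0.

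The input libraries hold lysate of whole cultures, 6 per replicate, and come from other cultures than the regional set. Here 3 of the 7 genes fell after ECL in Synpo+/+, while 3.16% of 17951 genes fell, 2.45% rose and 5.61% moved in either direction. They were Fdft1, Sqle and Hmgcs1. Fdft1 was at 161, 182, 182, 241 and 246 CPM in controls and at 125, 127, 143, 146 and 156 CPM after ECL. Every ECL library lay below every control, and the log2 fold change was -0.54 ± 0.11 (adjusted p = 0.0155). Sqle was at 128, 139, 145, 151 and 162 CPM in controls and at 86.4, 88.1, 108, 116 and 128 CPM after ECL, with the highest ECL library just below the lowest control. Its log2 fold change was -0.47 ± 0.11 (adjusted p = 0.0243). Hmgcs1 was at 296, 333, 347, 348 and 431 CPM in controls and at 244, 248, 276, 279 and 318 CPM after ECL. The ranges overlapped, and the log2 fold change was -0.37 ± 0.10 (adjusted p = 0.0415). Ctsb, which overlaps Fdft1 on the other strand, rose here (0.43, adjusted p = 0.0042).

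These input calls depended on single libraries. Hmgcs1 lost its call in 8 of 10 fits that left out 1 library (adjusted p 0.0541 to 0.101), all but those without control replicate 4 or ECL replicate 3. Sqle lost it without control replicate 2 (adjusted p = 0.0786), ECL replicate 1 (0.0541) or ECL replicate 2 (0.0634). Fdft1 lost it without control replicate 2 (adjusted p = 0.053), so that without this library none of the 7 passed. Idi1 (-0.36, adjusted p = 0.166), Cyp51 (-0.29, 0.0926), Dhcr7 (-0.16) and Insig1 (-0.48, 0.156) had log2 fold changes below 0 that did not pass. Of the 3 genes that passed in input, Hmgcs1 alone had also passed in Synpo-/- DG, and the difference between input and regional fold changes was not tested.

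Whether the lesion response differed between genotypes was tested as an interaction in each region. In DG, none of the 7 genes passed (smallest adjusted p = 0.478), while 0.00381% of 26245 genes did. At an unadjusted p under 0.05, edgeR gave 2 of the 7, Dhcr7 (-0.80) and Cyp51 (-0.38), beside 10.4% of all genes, and DESeq2 called 0 of the 7 at an adjusted p under 0.05. Without Synpo+/+ DG ECL replicate 5 none of the 7 passed either, beside 0.00385% of all genes, and the interaction of Dhcr7 was -0.53 (adjusted p = 0.595). In CA3, none passed (smallest adjusted p = 0.281), and 0 of 26821 genes did. At an unadjusted p under 0.05, edgeR gave 2 of the 7 and 4589 of all genes (17.1%), and at an adjusted p under 0.05 DESeq2 called 0 and 383. The fall of Hmgcs1, Idi1 and Insig1 in Synpo-/- DG was thus not shown to differ from the response in Synpo+/+ DG.

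After the region dependence of these values was seen, the interaction of region with lesion was added for each genotype. In Synpo-/-, Insig1 passed, with an interaction of -0.82 ± 0.20 on the log2 scale (adjusted p = 0.0382), where 1.12% of 25435 genes passed, 0.24% with a negative and 0.877% with a positive sign. Insig1 averaged 25.1 ± 4.56 CPM (SD, n = 6) in Synpo-/- CA3 controls and 26.4 ± 6.44 CPM (n = 6) after ECL, beside 33.5 ± 2.81 CPM (n = 7) and 20.9 ± 1.22 CPM (n = 4) in DG. The call was lost in 7 of 23 fits that left out 1 library, without CA3 ECL replicate 1 or 4, DG control replicate 6 or any of the 4 DG ECL libraries (adjusted p 0.0506 to 0.0919). Hmgcs1 (-0.41, adjusted p = 0.288) and Idi1 (-0.53, adjusted p = 0.46) did not pass. In Synpo+/+, none of the 7 nor any of 27783 genes passed. At an unadjusted p under 0.05, edgeR gave 0 of the 7 and 1240 of all genes there, and at an adjusted p under 0.05 DESeq2 called 0 and 10. Without DG ECL replicate 5 none of the 7 passed, beside 0.0109% of all genes (0.00726% with a positive sign).

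Among the other genes of the pathway, 2 of 15 further synthesis enzymes passed in Synpo-/- DG. Msmo1, which removes methyl groups from sterols after Cyp51 has acted, fell (log2 fold change -0.40, adjusted p = 0.037), as did Lss, which closes squalene epoxide to lanosterol (-0.34, 0.038). None rose, and the median of the 15 was -0.14. In Synpo+/+ DG with all libraries, Ebp, a sterol isomerase, rose (0.64, adjusted p = 0.019) and no other of the 15 passed. Without replicate 5, 1 of the 15 rose (Ebp, 0.54, 0.0144) and 1 fell, and their median was 0.05. In both CA3 comparisons none of the 15 passed. Their median log2 fold change was 0.35 in Synpo+/+ CA3 and -0.20 in Synpo-/- CA3, where all 15 lay below 0. In input, 2 of the 15 fell, among them Tm7sf2, a sterol reductase (-0.54), none rose, and the median was -0.28.

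Of 6 genes that control SREBP, Srebf1, which encodes the relative of SREBP2 that favours fatty acid genes, rose in Synpo-/- DG (0.70, adjusted p = 0.0058). In Synpo+/+ DG none of the 6 passed with all libraries. Without replicate 5, Srebf1 rose (0.56, 0.043) and Srebf2, which encodes SREBP2, fell (-0.41, 0.0418). In input, Srebf2 was the only one of the 6 that passed, and it fell (-0.52, 0.022).

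Of 8 genes of cholesterol uptake and transport, 1 fell in Synpo-/- DG, 2 in Synpo+/+ DG with and without replicate 5 and 2 in input, with Stard4 among them each time. Stard4, which carries cholesterol between membranes and is itself an SREBP2 target, fell in Synpo-/- DG (-1.09, adjusted p = 0.00035), in Synpo+/+ DG (-0.76 with all libraries and -0.97 without replicate 5) and in input (-0.54). Npc2, a lysosomal sterol carrier, was the only one of the 8 that rose, in Synpo+/+ DG (0.73, and 0.70 without replicate 5).

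In Synpo-/- DG, 4 of 9 genes of efflux and turnover rose and none fell. They were Abca1, which exports cholesterol to lipoproteins (1.23, adjusted p = 5.7e-07), Ch25h, which makes 25-hydroxycholesterol (2.15), Apoe, the main apolipoprotein of the brain (1.54), and Abcg1 (0.47). In Synpo+/+ DG, 5 of the 9 rose with all libraries (Abca1 by 1.17, Abcg1, Ch25h, Soat1 and Nr1h3) and 4 without replicate 5 (Abca1 by 1.27, Abcg1, Ch25h and Soat1). In input, Abca1 (0.97), Ch25h, Abcg1 and Soat1 rose, and Cyp46a1, the neuronal cholesterol 24-hydroxylase, fell (-0.45). Apoe did not have the same sign throughout. It rose in Synpo+/+ CA3 (1.56, adjusted p = 0.0137), the only one of the 9 to pass there, stood at 0.97 in Synpo+/+ DG (0.0843), and in input averaged 585 ± 344 CPM (SD, n = 5) in controls and 151 ± 174 CPM (n = 5) after ECL, a log2 fold change of -1.95 that did not pass (edgeR, adjusted p = 0.0685). Among 10 fatty acid genes, Fads2 rose (0.57) and Scd1 fell (-0.56) in Synpo-/- DG, and no other of the 10 passed. In Synpo+/+ DG with all libraries, Fads2 (0.53) and Fasn (0.40) rose and Scd1 did not pass (-0.28, adjusted p = 0.153). Without replicate 5, Fads2 rose (0.54), Scd1 fell (-0.41) and Fasn did not pass (0.36, adjusted p = 0.0588).

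Markers of other cell types moved in the same libraries. In Synpo-/- DG, 8 of 10 microglial markers and 6 of 8 astrocyte markers rose after ECL. The summed microglial level ran from 531 to 1162 CPM in controls and from 1161 to 1610 CPM after ECL, and the summed astrocyte level from 4945 to 5844 CPM and from 7618 to 9721 CPM. None of the 5 neuronal markers passed, and their sum was 4039 ± 598 CPM (SD, n = 7) in controls and 3503 ± 586 CPM (n = 4) after ECL. In Synpo+/+ DG, 10 of 10 microglial markers rose with and without replicate 5, and 5 of 8 astrocyte markers rose with it and 7 without it. In Synpo-/- CA3, 2 of 10 oligodendrocyte markers fell, and their sum went from 2464 ± 500 CPM (n = 6) to 1538 ± 196 CPM (n = 6). In input, 4 of 10 microglial markers rose and 1 of 5 neuronal markers fell, with neuronal sums of 7999 ± 620 CPM (n = 5) in controls and 7184 ± 520 CPM (n = 5) after ECL. The part of these shifts in the values of the 7 genes was not tested.

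The regions were compared next, within each genotype and lesion state. The region comparisons use the same libraries as the lesion comparisons, so the results of both are not independent. In Synpo-/- control cultures, Hmgcs1, Sqle and Dhcr7 were lower in DG than in CA3 and Insig1 was higher, in a comparison where 25.5% of 21408 genes were called, 12.5% lower and 13.1% higher in DG. Hmgcs1 ran from 132 to 188 CPM in 7 DG libraries and from 197 to 259 CPM in 6 CA3 libraries, with no overlap (log2 fold change -0.37 ± 0.09, adjusted p = 0.00359). Sqle ran from 34.0 to 50.8 CPM in DG and from 51.0 to 68.7 CPM in CA3, also without overlap (-0.36 ± 0.09, adjusted p = 0.00331). Dhcr7 ran from 5.56 to 9.52 CPM in DG and from 9.62 to 13.1 CPM in CA3 (-0.39 ± 0.12, adjusted p = 0.024). Its call was lost without CA3 control replicate 6 (adjusted p = 0.0624) or DG control replicate 3 (0.0545). Insig1 ran the other way, from 28.7 to 36.9 CPM in DG and from 19.1 to 29.3 CPM in CA3, with some overlap (0.52 ± 0.10, adjusted p = 0.000887). The 3 enzymes and Insig1 thus differed between the regions in opposite directions, and a link between them was not tested. Idi1 (-0.08), Fdft1 (-0.22) and Cyp51 (-0.12) did not pass.

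After ECL in Synpo-/-, Hmgcs1, Sqle and Idi1 were lower in DG than in CA3, where 6.24% of 22767 genes were lower, 7.37% higher and 13.6% called in either direction. Hmgcs1 was at 97.1 to 117 CPM in 4 DG libraries and at 152 to 239 CPM in 6 CA3 libraries, without overlap (-0.80 ± 0.12, adjusted p = 0.000406). Sqle was at 35.0, 37.8, 38.5 and 38.6 CPM in DG and ran from 43.8 to 62.0 CPM in CA3, without overlap (-0.56 ± 0.10, adjusted p = 0.00178). Idi1 had a log2 fold change of -0.63 ± 0.19 (adjusted p = 0.0388). Its call was lost without any 1 of CA3 ECL replicates 1 to 5 (adjusted p 0.0504 to 0.0623) or DG ECL replicates 1, 3 or 4 (0.0739 to 0.141). Without CA3 ECL replicate 6, the lowest of its group for Idi1, 6 genes passed, with Fdft1 (adjusted p = 0.043), Cyp51 (0.0131) and Insig1 (0.0403) added. Insig1 was no longer higher in DG after ECL, with a log2 fold change of -0.32 (adjusted p = 0.231).

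In Synpo+/+ controls, with 2 CA3 and 4 DG libraries, Sqle was lower in DG, where 2.75% of 25656 genes were lower and 5.39% were called. It was at 38.07, 38.996, 39.72 and 42.98 CPM in DG and at 56.2 and 58.2 CPM in CA3 (-0.50 ± 0.13, adjusted p = 0.0352). The call was lost without either CA3 library (adjusted p = 0.200 and 0.170) and without DG control replicate 1 (0.0569), 3 (0.115) or 4 (0.0791), and also without a filter on low counts. Hmgcs1 was at 173 and 249.7 CPM in CA3, a wide gap, and its log2 fold change of -0.40 did not pass (adjusted p = 0.21). In Synpo+/+ after ECL, none of the 7 passed with all libraries, while 2.05% of 24029 genes did, 1.54% with higher values in DG. The smallest adjusted p was 0.144, for Sqle (-0.53), and Hmgcs1 stood at -0.50 (adjusted p = 0.175). These 2 genes had an unadjusted p under 0.05 in edgeR, and DESeq2 called 0 of the 7 at an adjusted p under 0.05.

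Without DG ECL replicate 5, 5 of the 7 were lower in Synpo+/+ DG than in CA3 after ECL, where 12.3% of 23965 genes were lower, 7.51% higher and 19.8% called in either direction. Hmgcs1 then ran from 102 to 127 CPM in 6 DG libraries and was at 168, 187 and 227 CPM in CA3 (-0.71, adjusted p = 0.000125). Sqle ran from 32.0 to 39.4 CPM in DG and was at 51.6, 58.4 and 75.2 CPM in CA3 (-0.72, adjusted p = 0.00024). For both genes every DG library lay below every CA3 library. Idi1 (-0.73, adjusted p = 0.0113), Fdft1 (-0.55, 0.034) and Cyp51 (-0.37, 0.0274) passed as well, and Dhcr7 (-0.46, 0.0675) and Insig1 (-0.28, 0.12) did not.

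**Figure D3:**
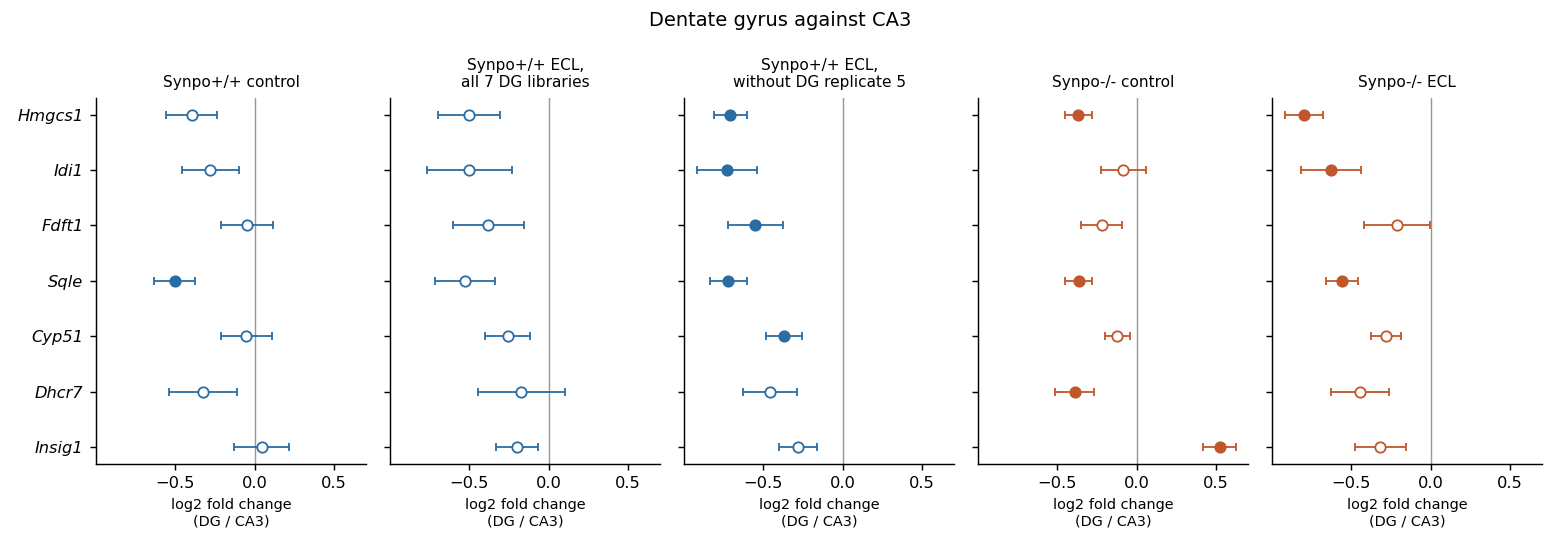
Fitted log2 fold change of DG over CA3 (x axis) with SE for each of the 7 genes, in control and ECL cultures of both genotypes, with Synpo+/+ ECL also shown without DG replicate 5. Hmgcs1 and Sqle lie below 0 throughout, and Insig1 lies at 0.52 in Synpo-/- controls and at -0.32 after ECL.

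Some of the other synthesis enzymes were lower in DG as well. In Synpo-/- controls, 4 of the 15 were lower in DG and none higher, where 12.5% of all genes were lower, namely Hsd17b7 (-0.88), Msmo1 (-0.49), Nsdhl (-0.51) and Sc5d (-0.39), all enzymes between lanosterol and cholesterol, and the median of the 15 was -0.32, beside 0.05 for all genes. After ECL in Synpo-/-, 2 of the 15 were lower, Hsd17b7 (-0.62) and Msmo1 (-0.52), beside 6.24% of all genes, and the median was -0.27. In Synpo+/+ none of the 15 passed in controls (median -0.20) or, with all libraries, after ECL (median -0.24). In edgeR, 2 and 3 of the 15 had an unadjusted p under 0.05 there, beside 17.6% and 19.6% of all genes. After ECL without replicate 5, 5 of the 15 were lower in DG, beside 12.3% of all genes, among them Hsd17b7 (-0.78), Msmo1 (-0.72), Nsdhl (-0.64) and Sc5d (-0.59), with a median of -0.35. Srebf2 was lower in DG in Synpo-/- controls (-0.31) and in Synpo+/+ ECL without replicate 5 (-0.49), but did not pass there with all libraries (-0.29, adjusted p = 0.452). Stard4 was lower in DG after ECL in Synpo-/- (-0.85). In Synpo+/+ after ECL it did not pass with all libraries (-0.48, adjusted p = 0.221) and was lower without replicate 5 (-0.70).

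Cell markers differed between the regions too. In Synpo-/- controls, all 10 oligodendrocyte markers were lower in DG, with a median log2 fold change of -1.30 and sums of 994 ± 365 CPM (SD, n = 7) in DG and 2464 ± 500 CPM (n = 6) in CA3. The neuronal sum was 4039 ± 598 CPM in DG and 7110 ± 699 CPM in CA3, and 2 of 5 neuronal markers were lower. After ECL in Synpo-/-, 3 oligodendrocyte and 2 neuronal markers were lower in DG, and 6 microglial and 6 astrocyte markers higher. In Synpo+/+ controls, 7 oligodendrocyte and 2 neuronal markers were lower. In Synpo+/+ after ECL, none of these markers was lower with all libraries, and 9 oligodendrocyte and 3 neuronal markers were without replicate 5. Oligodendrocytes and neurons both make cholesterol, and the part of these markers in the region differences was not tested.

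Genotype was compared within each region and lesion state, and none of the 7 genes passed in any of the 4 comparisons by edgeR (adjusted p of at least 0.237) or by DESeq2. The called share of all genes was 0.00413% in CA3 controls, 0.0166% in DG controls, 0.00891% in CA3 ECL and 0.0166% in DG ECL (0.0375% without Synpo+/+ DG ECL replicate 5, where none of the 7 passed either). At an unadjusted p under 0.05, edgeR gave 2 of the 7 in CA3 controls, Fdft1 (0.42) and Dhcr7 (0.41), beside 16.4% of all genes, and 0 in the other comparisons. In DG controls, Hmgcs1 averaged 165 ± 18.4 CPM (SD, n = 7) in Synpo-/- and 158 ± 18.7 CPM (n = 4) in Synpo+/+, Sqle 43.1 ± 5.91 and 39.9 ± 2.13 CPM, and Insig1 33.5 ± 2.81 and 31.4 ± 4.55 CPM. In CA3 controls, Dhcr7 ran from 9.62 to 13.1 CPM (n = 6) in Synpo-/- and was at 6.83 and 9.10 CPM in Synpo+/+, without overlap. Fdft1 ran from 47.2 to 71.0 CPM in Synpo-/- and was at 37.2 and 50.0 CPM in Synpo+/+, with overlap.

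The coIP comparison asks which transcripts were retained with synaptopodin on the beads. In Synpo+/+ control cultures, Idi1 and Fdft1 were lower in coIP than in input and Sqle was higher. Such differences were common, since 55.0% of 18222 genes were called, 29.6% higher and 25.5% lower. Idi1 was at 15.7, 19.0, 19.5, 20.2 and 23.3 CPM in input and at 7.60, 10.6, 11.1, 11.4 and 13.7 CPM in coIP. No coIP library reached the lowest input library, and the log2 fold change was -0.82 ± 0.15 (adjusted p = 0.000307). Fdft1 was at 161, 182, 182, 241 and 246 CPM in input and at 108, 109.9, 136, 154 and 184 CPM in coIP, with overlap (-0.53 ± 0.16, adjusted p = 0.00957). Sqle was at 128, 139, 145, 151 and 162 CPM in input and at 161, 173, 174, 197 and 206 CPM in coIP, where only the lowest coIP library lay below the highest input library (0.35 ± 0.09, adjusted p = 0.00504). Hmgcs1 averaged 351 ± 49.4 CPM in input and 327 ± 49.6 CPM in coIP (SD, n = 5 each) and did not pass.

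In Synpo+/+ ECL cultures, Idi1 and Fdft1 were again lower in coIP, while 58.3% of 18229 genes were called, 30.5% higher and 27.8% lower. Idi1 was at 11.1, 14.3, 16.8, 16.9 and 17.8 CPM in input and at 4.05, 7.18, 7.92, 8.46 and 8.76 CPM in coIP (-1.06 ± 0.19, adjusted p = 0.000375). Fdft1 was at 125, 127, 143, 146 and 156 CPM in input and at 64.2, 81.1, 92.9, 98.0 and 100.1 CPM in coIP (-0.66 ± 0.12, adjusted p = 0.000334). For both genes every coIP library lay below every input library. The share of all genes that separated in full was not computed. Sqle stood at 0.19 and did not pass (adjusted p = 0.239). Hmgcs1 stood at -0.22 (adjusted p = 0.127). When input and coIP of one lysate were paired, Hmgcs1 passed as well (-0.23, adjusted p = 0.0442), so that 3 of the 7 did.

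The beads were also used on Synpo-/- lysates, which serve as the background for binding without synaptopodin. Idi1 was lower in coIP there too, at 12.6 and 20.1 CPM in input and 9.69 and 10.4 CPM in coIP (-0.73 ± 0.22, adjusted p = 0.0244), where 31.4% of 20892 genes were called, 15% higher and 16.4% lower. The call rested on 2 libraries a group and was lost without input replicate 2 (adjusted p = 0.376). Fdft1 (-0.31, adjusted p = 0.0899) and Sqle (-0.11, adjusted p = 0.56) did not pass. The Synpo-/- input and coIP libraries held 42886994 to 53682143 counts, beside 12888443 to 26730691 in those of Synpo+/+ controls. Genotype and depth cannot be told apart between them. The interaction of genotype with fraction, taken against the Synpo+/+ control libraries, passed for none of the 7 genes and 0 of 20621 genes. At an unadjusted p under 0.05, edgeR gave 1 of the 7 and 1511 of all genes, and at an adjusted p under 0.05 DESeq2 called 0 and 60. For Sqle, the only gene of the 7 higher in coIP, it was -0.40 ± 0.17 (adjusted p = 0.618). The retention of Sqle in Synpo+/+ was thus not shown to differ from that in Synpo-/-.

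Other synthesis enzymes were spread in both directions in coIP of Synpo+/+ controls, with 3 of 15 higher, among them Lss (0.40), and 6 lower, among them Pmvk (-0.96), Acat2 (-0.76) and Nsdhl (-0.74). Of the 6 SREBP control genes, 4 were higher, with Scap at 1.35 and Srebf1 at 1.34, and Insig2 was lower (-0.56). Of 10 fatty acid genes, 7 were higher and none lower, with Fasn at 1.23 and Acaca at 1.21. In ECL cultures the counts were 2 higher and 7 lower of the 15 enzymes, 4 and 2 of the 6 control genes and 6 and 0 of the fatty acid genes. In Synpo-/-, they were 3 and 2, 2 and 1, and 4 and 0. These counts are to be read beside the shares of all genes called higher and lower in each comparison, given above. No list was tested against those shares. In coIP of Synpo+/+ ECL cultures, 7 of 10 microglial markers were lower, and the share of all genes lower there is given above. The summed neuronal markers were lower in coIP too. In ECL cultures they ran from 3810 to 5100 CPM in coIP and from 6413 to 7878 CPM in input. In control cultures they ran from 4456 to 5799 CPM and from 7423 to 8934 CPM. Sums of astrocyte and oligodendrocyte markers overlapped between the fractions. These sums were not tested.

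Levels of the 7 genes varied together from library to library. Within the 8 regional groups, all 21 pairs had a positive correlation of log2 CPM, with r from 0.10 to 0.86 and a median of 0.59 over 39 libraries. The tightest pair was Hmgcs1 with Cyp51 (r = 0.86 within groups) and the loosest Dhcr7 with Insig1 (0.10). With all libraries, Insig1 was the least tied to the others, at 0.46 or less. Without Synpo+/+ DG ECL replicate 5, the highest of its group for all 7 genes, 20 of the 21 pairs had a positive r within groups, from -0.11 for Dhcr7 with Insig1 to 0.80, with a median of 0.38 over 38 libraries. Dhcr7 was then the least tied to the others, at 0.26 or less, and Insig1 stood at 0.40 or less. These values share library, depth and dissection, so they describe these libraries and were not tested.

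The gene outside the 7 whose pattern was most like their mean over the 39 regional libraries, among 9362 genes with a mean of at least 10 CPM, was Msmo1 (r = 0.92 with the mean of standardised log2 CPM, and 0.87 within groups). Msmo1 encodes the sterol methyl oxidase of the same pathway. Braf, a kinase (0.91), Scrn3 (0.91), Tfrc, the transferrin receptor (0.91), and Atf2, a transcription factor (0.88), came next, none of them a cholesterol gene. Without Synpo+/+ DG ECL replicate 5, Msmo1 was again first (0.92, and 0.83 within groups) and Braf, Tfrc and Scrn3 followed, while Atf2 stood at rank 10. Of the other lists, Elovl6 (rank 59), Sc5d (rank 62) and the neuronal marker Snap25 (rank 67) followed, at ranks 82, 79 and 65 without replicate 5.

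The mean of the 7 genes also followed the markers of some cell types, among them neurons. Across 17 CA3 libraries the correlation of the mean with the log2 sum of the 5 neuronal markers was r = 0.835 (permutation test, p = 0.00014, adjusted p = 0.00084) and rho = 0.696 (p = 0.00263, adjusted p = 0.0105). Without the 2 libraries farthest from the median it was 0.563. Across 22 DG libraries it was r = 0.808 (p = 2e-05, adjusted p = 0.00024) and rho = 0.735 (p = 0.00022, adjusted p = 0.00132), 0.667 without the 2 farthest and 0.696 without Synpo+/+ DG ECL replicate 5. The p-values are two-sided over 100000 permutations and adjusted over 12 correlations, of 6 marker lists in 2 regions, and each region pools both genotypes and lesion states. Those of DG include replicate 5, and none was computed without it. Oligodendrocyte markers passed in CA3 (r = 0.771, rho = 0.828, and r = 0.775 without the 2 farthest libraries) but not in DG (r = 0.198, and -0.262 without replicate 5). Astrocyte markers passed by r in CA3 (0.762, adjusted p = 0.00153), which fell to 0.439 without the 2 farthest libraries. In DG they had r = -0.443 (-0.686 without replicate 5) and passed by rho alone (-0.518, adjusted p = 0.0445). Microglial markers passed by r in CA3 (0.568, adjusted p = 0.0397), which fell to 0.159 without the 2 farthest libraries, and had r = -0.334 in DG (-0.585 without replicate 5). Endothelial markers passed by r in CA3 (-0.554, adjusted p = 0.0397), which went to -0.319 without the 2 farthest libraries, and did not pass in DG (-0.104). Neither astrocyte, microglial nor endothelial markers passed by rho in CA3. Oligodendrocyte precursor markers passed in neither region. Both measures are shares of one library total, and which cells carried the transcripts was not tested.

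**Figure D4:**
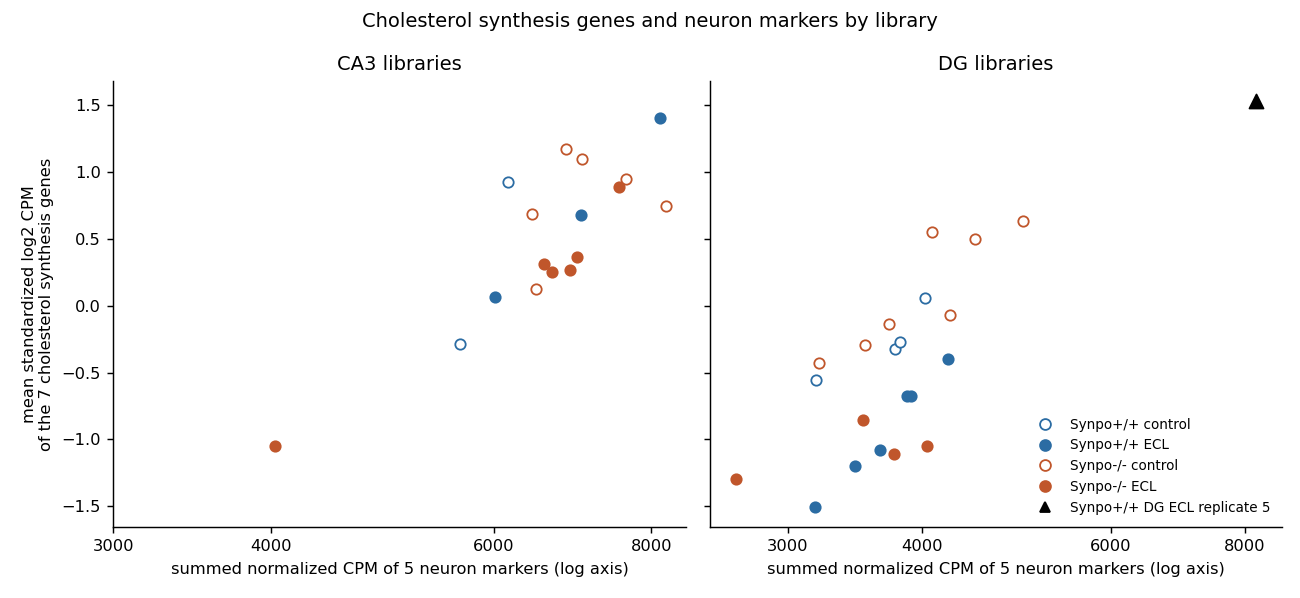
Mean standardised log2 CPM of the 7 genes (y axis) against the log2 summed CPM of 5 neuronal markers (x axis), 1 point per regional library, coloured by group. Libraries with more neuronal marker RNA lie higher in both regions, and Synpo+/+ DG ECL replicate 5 lies among the CA3 libraries.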

How the data were processed

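Counts from 39 regional and 24 coIP or input libraries were used. The deposited values were counts per gene, not normalised: per the labels and methods, the authors removed adapters (cutadapt 3.5), aligned to mm10 (STAR 2.7.8a) and counted exon reads (featureCounts 2.0.1) over GENCODE M25 without regard to strand, keeping libraries with over 60% uniquely mapped reads. The libraries were amplified by PCR without molecular identifiers, so that counts are not independent molecules and the error was taken from replicates. Regional replicates were separate cultures and coIP replicates separate pools. No pair of replicates agreed within sampling noise.

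Each of 19 comparisons, and 2 added after the data were seen (region by lesion), was fitted on the whole table with edgeR 4.0.16 in R 4.3.3 (filterByExpr, TMM, quasi-likelihood test) using only the groups compared, with Benjamini-Hochberg adjustment over all genes tested. A gene was called at an adjusted p under 0.05. Normalised CPM were read counts relative to the TMM-scaled library size (CPM), within the regional or the coIP set, and values with ± are means with SD, or log2 fold changes with SE. The limit of a mean normalised count over 300, which the study's tables use, was an alternative, as were DESeq2 1.42.0, RLE scaling, no filter on low counts, removal of a trend with gene length, a replicate block, a fit over the 4 groups of each region and leaving out each library. Log2 CPM for correlations had a prior count of 2. Of input and coIP from one lysate, same-numbered Synpo+/+ libraries deviated together (r 0.189 to 0.442 in control and 0.105 to 0.381 in ECL pairs). The main coIP tests did not use these pairs, and the replicate block gave the paired fit as an alternative. In the other comparisons same-numbered libraries did not deviate together throughout (r -0.224 to 0.540), and the main tests treated them as independent. In input, oligodendrocyte sums were 2179 and 2646 CPM in control replicates 1 and 2 and 5485 to 6078 CPM in replicates 3 to 5. In ECL they were 2471 and 3599 CPM, beside 5599 to 6538 CPM. Control and ECL libraries are of different cultures. Whether a shared number stands for a shared culture in DG and CA3, or for a shared batch, was not tested.

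The 7 genes, the gene lists and the tests were chosen with earlier results of these data known. Of each list, the text names up to 3 genes with the smallest p and any gene that a count of 5 or fewer refers to. Some genes of these lists are not reported here by name, although counts and medians over a list include them. The genes most like the 7 are those with the highest r with their mean standardised log2 CPM. On simulated counts with 200 genes changed 4-fold, edgeR called 182 to 200 of them in 21 comparisons, with at most 18 unchanged genes called, and DESeq2 198 to 200 in 5 comparisons, with at most 33. Smaller changes, such as those of the 7 genes, were not simulated. These counts therefore do not show how often changes of that size would be missed.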

Additional observations from a re-analysis of the deposited data

Results flagged for a closer look

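Of 70 sets of 4 to 10 values (each of the 7 genes in each group of that size), 8 held a library that stood apart from the others by Dixon's criterion, which chance gives in about 1 of 20 sets, or 3.5 here. In Synpo+/+ DG ECL, replicate 5 stood apart for Hmgcs1 at 230.8 CPM (102 to 127 CPM in the other 6), Sqle at 69.6 CPM (32.0 to 39.4 CPM), Idi1 at 27.9 CPM (7.71 to 16.3 CPM) and Dhcr7 at 16.6 CPM (5.50 to 8.62 CPM). These 4 values come from 1 library, whose Prox1 level of 15.5 CPM lay among those of the CA3 libraries. Its part in the lesion and region results is given by the values without it in the report.

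Among Synpo-/- libraries, Idi1 stood apart at 31.0 CPM in CA3 control replicate 3 (17.8 to 22.04 CPM in the others) and at 10.4 CPM in CA3 ECL replicate 6 (18.2 to 22.4 CPM). Dhcr7 stood apart at 12.0 CPM in Synpo-/- CA3 ECL replicate 2 (6.48 to 8.52 CPM) and at 7.41 CPM in Synpo+/+ DG control replicate 3 (5.83 to 6.08 CPM).

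The lesion response of Insig1 in Synpo-/- cultures differed between DG and CA3, with an interaction of -0.82 on the log2 scale (edgeR, adjusted p = 0.0382), a comparison added after the data were seen.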

How the results depend on the processing

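Of 2464 values of the 7 genes under the alternatives, 2386 kept their direction and side of the threshold, 55 lost a call and 23 gained one, and of the 115 that changed sign none was past the threshold. The count of the 7 genes called stayed within 1.5 times the count given in every comparison under DESeq2, RLE scaling, removal of the length trend and all 4 groups in one fit. DESeq2 moved the median of the genes it tested in Synpo+/+ CA3 after ECL to 0.15, beside -0.01 in edgeR. Without a filter on low counts, DG against CA3 in Synpo+/+ controls went from 1 gene to 0. Requiring a mean normalised count over 300 left 1 of 2 genes in coIP of Synpo+/+ ECL. With a replicate block, the counts went to 3 (from 1) for the lesion in Synpo+/+ DG, to 1 (from 0, Fdft1 0.61, adjusted p = 0.0109) for genotype in CA3 controls, to 0 (from 1) for region in Synpo+/+ controls, to 5 (from 0) for region in Synpo+/+ ECL and to 0 (from 1) for region by lesion in Synpo-/-. It also ended the calls of Cyp51 for the lesion in Synpo-/- DG (-0.32, adjusted p = 0.141) and of Hmgcs1 in input (-0.37, 0.0884) and added Fdft1 for region in Synpo-/- ECL (-0.38, 0.0447). Libraries of different genotype or lesion state are of different cultures, whatever their number. In CA3 controls, same-numbered libraries of both genotypes did not deviate together (r -0.149 and 0.080). What else libraries of one number share in these groups was not tested. In Synpo+/+ a DG ECL library without a partner of its number, replicate 5 among them, adds nothing to a blocked fit. In the paired coIP of Synpo+/+ ECL the block gave 3 genes (from 2), and it ended no coIP call. Leaving out 1 library gave 0 to 3 genes for the lesion in Synpo+/+ DG, 2 to 4 in Synpo-/- DG and 0 to 3 in input, 0 to 1, 0 to 5, 3 to 4 and 2 to 6 for region (Synpo+/+ control and ECL, Synpo-/- control and ECL), 0 to 1 for coIP in Synpo-/- and 0 to 1 for region by lesion in Synpo-/-. The other comparisons kept their counts. Apart from those that followed from fewer samples or genes, the causes were not tested.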
